A study of Arabidopsis thaliana with 8 samples.

Results

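The endoplasmic reticulum (ER) body genes PYK10, NAI1, NAI2, JAL22, JAL33 and JAL34 were followed in whole Arabidopsis thaliana plants moved to the cold. They are 6 of the 13350 genes that the probe annotation ties to a probe set of their own on the Affymetrix ATH1 array. Each of the 6 was found by its locus identifier. They were chosen by earlier results of these same arrays, in which the signal of PYK10 was lower at 24 h and 7 days than at 0 h, together with the known partners of PYK10. Their differences from 0 h at those times are therefore given as a description, with no p-value and nothing read from a call. The study measured RNA of Col-0 plants with 2 arrays in each of 4 groups, 8 arrays in all. The plants of every group were grown on plates with 0.80% phytagar in continuous light (100 µmol per square metre per second) at 24 °C, after 4 days of stratification of the seed at 4 °C, until they were 10 days old. The 0 h group was harvested in those growth conditions, and the other groups after 1 h, 24 h or 7 days at 4 °C in continuous light that was dimmer, at about 25 µmol in the same unit. That dimmer light is given by the treatment protocol, whereas the description of the samples lists 100 µmol for all of them. By the protocol, cold plants differed from 0 h plants in light as well as in temperature. They were also older by their time in the cold, most of all at 7 days. Temperature, light and age cannot be told apart here. Warm-kept plants of the same later ages were not analysed here.

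ER bodies are spindle-shaped compartments derived from the endoplasmic reticulum in Brassicales, and in Arabidopsis they are abundant in the roots and in the epidermis of seedlings. They store PYK10, a beta-glucosidase that can hydrolyse indole glucosinolates when tissue damage brings enzyme and substrate together, and they are known as a part of chemical defence. NAI1 is the basic helix-loop-helix transcription factor on which ER bodies and the expression of PYK10 depend, NAI2 is the ER body protein needed to form them, and the jacalin-related lectins (JAL genes) join PYK10 in a large complex after the cell is broken.

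Values are MAS5 signals on a linear scale, scaled so that each array's mean, trimmed by 2% of the probe sets at either end, was 100.0. A signal is compared here only with the same probe set on other arrays. Arrays of a group correlated at r = 0.956 (24 h) to 0.972 (1 h) across the 15017 tested probe sets, which are not independent replicates. Nothing in the labels says that the arrays of a group came from separate plates of plants, so the spread between them may be technical. The 4 measured cold-regulated genes rose at 24 h and at 7 days, COR15A from 31.6 and 19.7 at 0 h to 4523 and 7758 at 24 h (log2 difference 7.48 ± 0.60 SE, adjusted p = 1.42e-05).

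All 6 ER body genes had lower signals on both arrays at 24 h and on both arrays at 7 days than on either array at 0 h. At 24 h the signal left ranged from 8.61% (NAI1, replicate 2) to 76.1% (PYK10, replicate 1) of the mean at 0 h. At 7 days it ranged from 12.6% (JAL22, replicate 2) to 57.4% (NAI2, replicate 1). At 1 h the signals were between 69.2% (JAL22, replicate 2) and 126% (NAI1, replicate 1) of the mean at 0 h. In whole plants a lower signal can come from fewer cells that express a gene or from less RNA per cell, and these cannot be told apart.

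**Figure D1:**
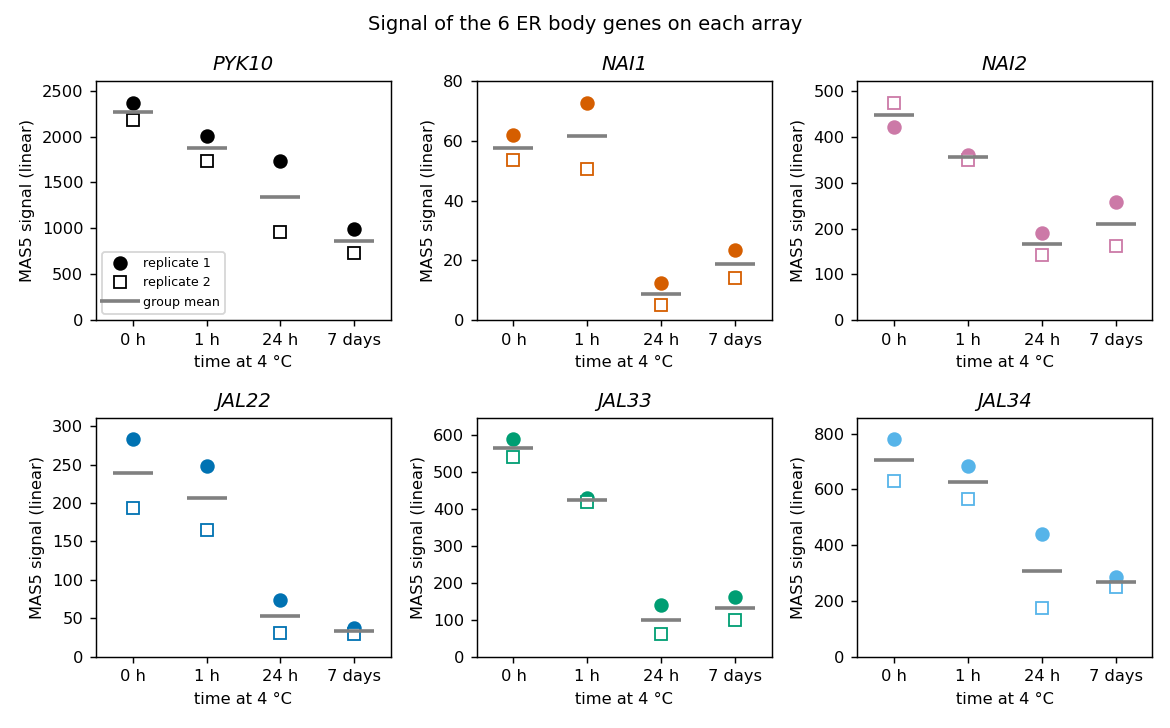
MAS5 signal (linear scale from 0, with its own range in each panel) of the 6 ER body genes on each of the 8 arrays against time at 4 °C. Filled circles are replicate 1, open squares replicate 2 and grey bars the mean of the 2 arrays. In every panel the points at 24 h and 7 days lie below those at 0 h.

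NAI1, the transcription factor, gave signals of 61.8 and 53.4 at 0 h and 72.8 and 50.7 at 1 h. At 24 h the arrays read 12.3 and 4.96, and at 7 days 23.6 and 14.2. The 0 h and 1 h arrays overlapped, the 24 h arrays were the lowest, and both 7-day arrays lay between. On the log2(signal + 8) scale used for all fitted differences, which understates the change of dim genes, NAI1 was lower by -2.02 ± 0.32 (SE, n = 2 arrays a group) at 24 h and by -1.31 ± 0.32 at 7 days. The signal of NAI1 exceeded the 40th percentile of its array on 4 of 8 arrays, those at 0 h and 1 h, and stood below it on every 24 h and 7-day array, where that percentile lay between 23.1 and 28.0. NAI1 thus entered the tested set only through the groups in which it was high, and the size of its difference depended on the constant added before taking logs. At 24 h it was -2.72 with a constant of 1 and -1.15 with a constant of 32.

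NAI2, which ER bodies need in order to form, gave 422 and 475 at 0 h, 361 and 350.2 at 1 h, 191 and 142 at 24 h, and 258 and 162 at 7 days. Both 1 h arrays were below both 0 h arrays, and the 24 h and 7-day arrays were lower again. The 24 h and 7-day arrays overlapped, so these groups had no order beyond their spread. The log2 differences from 0 h were -1.40 ± 0.23 at 24 h and -1.10 ± 0.23 at 7 days.

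PYK10, the beta-glucosidase itself, gave 2368 and 2177 at 0 h and 2007 and 1734 at 1 h. At 24 h the arrays read 1730 and 959, and at 7 days 998 and 731. Its group means followed the order of time, from 2272 ± 135 (SD, n = 2) at 0 h through 1870 ± 193 at 1 h and 1345 ± 545 at 24 h to 864 ± 189 at 7 days, but neighbours in that order were not all separate. The higher 24 h array stood just under the lower 1 h array, and the lower 24 h array under the higher 7-day array. The log2 difference from 0 h was -0.81 ± 0.27 at 24 h and -1.40 ± 0.27 at 7 days. The 24 h value rested on replicate 2: leaving out 24 h replicate 2 gave -0.39, and leaving out 24 h replicate 1 gave -1.24. At 7 days it stayed between -1.62 and -1.18 when any single array was left out.

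Of the lectins of the PYK10 complex, JAL22 gave 283 and 194 at 0 h, 249 and 165 at 1 h, 73.8 and 31.5 at 24 h, and 37.4 and 30.0 at 7 days. The 0 h and 1 h arrays overlapped with each other, as did the 24 h and 7-day arrays, with a gap between the early and the late pair of groups. The log2 differences from 0 h were -2.09 ± 0.33 at 24 h and -2.55 ± 0.33 at 7 days, the second being the lowest of the 6 genes at that time.

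JAL33 gave 589 and 542 at 0 h, 430 and 419 at 1 h, 139 and 62.4 at 24 h, and 163 and 99.5 at 7 days. Both 1 h arrays lay below both 0 h arrays, and the 24 h and 7-day arrays overlapped far below them. Its log2 difference from 0 h was -2.49 ± 0.31 at 24 h and -2.08 ± 0.31 at 7 days. At 24 h this was below that of NAI1 with the constant of 8, but with a constant of 1 NAI1 (-2.72) was below JAL33 (-2.59). It ranked as the 54th lowest of the 15017 tested probe sets at 24 h and as the 83rd at 7 days, while JAL22 ranked 132nd and 37th.

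JAL34, the direct neighbour of JAL33 in the gene order of assembly TAIR10.1, gave 779 and 631 at 0 h, 684 and 566 at 1 h, 440.2 and 176 at 24 h, and 287 and 250.4 at 7 days. The 0 h and 1 h arrays overlapped, and the 24 h arrays were the farthest apart and enclosed both 7-day arrays. Its log2 differences from 0 h were -1.30 ± 0.33 at 24 h and -1.36 ± 0.33 at 7 days. Leaving out 24 h replicate 2 gave -0.66 for the 24 h value, and leaving out 24 h replicate 1 gave -1.94. PYK10, NAI2, JAL33 and JAL34 lie on chromosome 3, NAI1 and JAL22 on chromosome 2, and of these only JAL33 and JAL34 are next to each other.

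**Figure D2:**
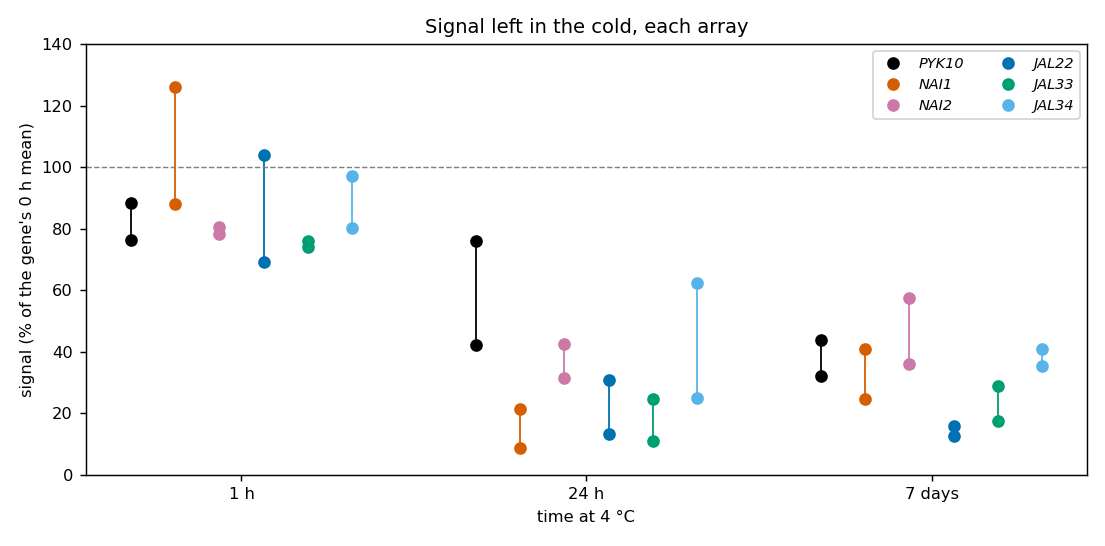
Signal of each gene on each cold array as a percentage of that gene's mean at 0 h (dashed line at 100%), against time at 4 °C. Points are single arrays and a line joins the 2 arrays of a group. At 24 h PYK10 and JAL34 span the widest ranges, 42.2% to 76.1% and 25.0% to 62.4%, and at 7 days JAL22 is lowest, at 12.6% and 15.7%.

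Set side by side, the genes differed in how much signal was left. At 24 h NAI1 (21.3% and 8.61%), JAL33 (24.6% and 11.0%) and JAL22 (30.9% and 13.2%) kept the least, NAI2 kept 42.6% and 31.6%, and PYK10 kept 76.1% and 42.2%. Both PYK10 arrays were thus above both arrays of NAI1, JAL22 and JAL33 on this relative scale, whereas JAL34 (62.4% and 25.0%) overlapped with PYK10, NAI2 and JAL22 but not with NAI1 or JAL33. At 7 days PYK10 (43.9% and 32.2%), JAL34 (40.8% and 35.5%) and NAI1 (41.0% and 24.6%) overlapped, NAI2 kept 57.4% and 36.0%, and JAL33 (28.8% and 17.6%) and JAL22 (15.7% and 12.6%) kept the least, JAL33 overlapping with NAI1.

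At 1 h against 0 h, a comparison that shares the 0 h arrays with those that chose the genes, limma called 0 of the 6 genes at an adjusted p under 0.05, in a comparison in which 0.32% of the 15017 tested probe sets were called in either direction. Without adjustment 685 of the 15017 probe sets had a p under 0.05, and 0 of the 6 genes did. The log2 differences ran from -0.41 ± 0.31 (JAL33, 95% interval -1.08 to 0.27) to 0.07 ± 0.32 (NAI1, -0.62 to 0.76), each with an adjusted p of 1. PYK10 stood at -0.28 with an interval from -0.86 to 0.30. Both 1 h arrays lay below both 0 h arrays for 3 genes, PYK10, NAI2 and JAL33, where 16.4% of all tested probe sets did the same. The median of the 6 log2 differences was -0.24, against -0.01 over all tested probe sets. Leaving out 0 h replicate 1 gave a median of -0.12, 1 h replicate 2 one of -0.11, and 1 h replicate 1 one of -0.37.

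In the fit against 0 h all 6 genes were among the 15.3% of tested probe sets called lower at 24 h and among the 10.7% called lower at 7 days. Both cold arrays lay below both 0 h arrays for all 6 at each time, as for 33.9% of all tested probe sets at 24 h and 33.0% at 7 days. These comparisons chose the genes, so nothing is read from the counts. The median log2 difference of the 6 genes was -1.71 at 24 h and -1.38 at 7 days, beside -0.06 and -0.05 over all tested probe sets.

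The comparison of 24 h with 1 h shares the 24 h arrays with those that chose the genes. All 6 genes had both 24 h arrays below both 1 h arrays, as had 36.1% of all tested probe sets. In the fit 5 of 6, all but PYK10, were called lower, as were 14.7% of tested probe sets. Nothing is read from these counts, and NAI1 was tested only through the 0 h and 1 h arrays, in which it was high. The call of JAL34 (-1.13 ± 0.33) was lost when either 1 h array was left out (-1.0 for replicate 1, -1.27 for replicate 2) or 24 h replicate 2 was (-0.49). That of NAI2 (-1.07 ± 0.23) was lost without 24 h replicate 2 (-0.87). JAL33 stood at -2.09 ± 0.31 and JAL22 at -1.89 ± 0.33. NAI1 stood at -2.09 ± 0.32, but its 24 h arrays were near background, and the value was -2.80 with a constant of 1 and -1.20 with a constant of 32. PYK10 was at -0.53 ± 0.27, with -0.11 without 24 h replicate 2 and -0.95 without 24 h replicate 1.

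Both groups set against each other at 24 h and 7 days took part in choosing the genes. The counts, intervals and p-values given for this pair are therefore a description and no independent test. From 24 h to 7 days 3 of the 6 genes had a lower and 3 a higher mean log2 signal. Of the 6, 0 were called by limma, where 9.3% of tested probe sets were called in either direction. Without adjustment, 3779 of the 15017 probe sets had a p under 0.05, and PYK10 and NAI1 were the members among them. PYK10 was lower at 7 days by -0.59 ± 0.27 (95% interval -1.17 to -0.01, not adjusted for the number of probe sets, adjusted p = 0.192). This value was -0.17 without 24 h replicate 1 and -0.37 without 7 days replicate 2, and -1.01 without 24 h replicate 2. NAI1 had both 7-day arrays above both 24 h arrays, as 26.3% of all tested probe sets had. All 4 of these NAI1 arrays were below the 40th percentile, so no interval is given: the difference was 0.71 with the constant of 8, 1.12 with 1 and 0.33 with 32, and from 0.39 without 24 h replicate 2 to 1.03 without 24 h replicate 1. For the other four genes the 24 h and 7-day arrays overlapped and the intervals included 0: JAL33 stood at 0.41 (-0.27 to 1.09), NAI2 at 0.30 (-0.21 to 0.81), JAL34 at -0.06 (-0.77 to 0.66) and JAL22 at -0.45 (-1.17 to 0.26). The signs of JAL22, JAL33 and JAL34 turned with which 24 h array was left out. That of NAI2 turned, to -0.03, without 7 days replicate 1. With 2 arrays a group, differences within these intervals are not excluded.

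The 2 arrays of a group differed in the same direction for nearly all 6 genes. Replicate 1 was higher than replicate 2 for 5 of 6 genes at 0 h, the exception being NAI2, and for 6 of 6 at 1 h, 24 h and 7 days. Over all tested probe sets replicate 1 was higher for 49.5%, 47.6%, 46.8% and 50.8% at these times. The median difference of the 6 genes between the arrays was 0.95 on the log2 scale at 24 h and 0.48 at 7 days, against 0.24 at 1 h and 0.15 at 0 h. At 24 h it ran from 0.41 for NAI2 to 1.28 for JAL34.

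The actin controls of the array, read at the 3' and at the 5' end of the transcript as a check on RNA quality, gave 3' over 5' ratios of 6.53 and 3.44 on the 24 h arrays, with the higher value on replicate 1, but 3.83 and 5.91 at 7 days, with the higher value on replicate 2. The actin ratios were 3.84 and 2.95 at 0 h, and 5.32 and 3.95 at 1 h. The GAPDH controls, read in the same way, gave lower ratios that differed less between arrays. They were 1.298 and 1.221 at 24 h, and 1.333 and 1.244 at 7 days. At 0 h they were 1.441 and 1.299, and at 1 h 1.328 and 1.45. Among the 4 cold-regulated genes at 24 h, COR15A (4523 and 7758), COR15B (2931 and 4178) and COR47 (5963 and 9336) were higher on replicate 2, and LTI30 (5421 and 5115) on replicate 1. At 7 days all 4 were higher on replicate 1, as the ER body genes were. The part of RNA integrity or of the extent of the cold response in these array differences was not tested.

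**Figure D3:**
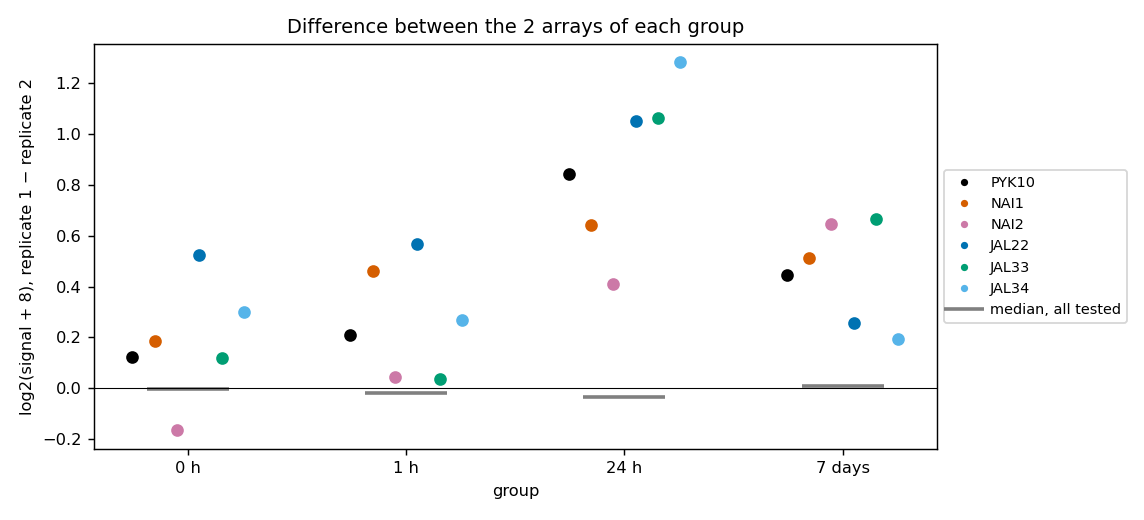
Difference between the 2 arrays of each group, as log2(signal + 8) of replicate 1 minus replicate 2, for each ER body gene (coloured points) and as the median over all 15017 tested probe sets (grey bars). NAI2 at 0 h is the single point below 0, and the points at 24 h lie between 0.41 and 1.28.

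Across the 8 arrays the log2 signals of the 6 genes were alike, with a median Pearson correlation of 0.93 over the 15 pairs. This is a description: the arrays share 4 groups, and all 6 genes were low in the same 2. The closest pair was NAI2 and JAL33 (r = 0.98) and the least alike NAI1 and PYK10 (r = 0.76). NAI1 correlated at 0.97 with JAL33 and 0.95 with NAI2, and PYK10 at 0.94 with JAL22 and 0.93 with JAL34.

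Among 1967 named genes whose group means spanned at least 1 on the log2 scale, the 5 most like PYK10 over the 8 arrays were AT5G26260 and SBT4.12, a subtilisin-like protease (r = 0.98 each), AT2G45670 and AT4G22120 (0.97 each) and AT1G06640 (0.96). JAL22 ranked 15th on this scale, JAL34 26th, JAL33 127th, NAI2 199th and NAI1, dim in the late groups, 332nd. Of the 1967 genes, 3.05% exceeded r = 0.9. Like PYK10, all 5 had lower means at 7 days than at 24 h, and the lower 24 h signal on replicate 2. SBT4.12 gave 224 and 195 at 0 h, 96.0 and 50.1 at 24 h, and 34.1 and 28.5 at 7 days, so its proportional decrease was larger than that of PYK10. AT4G22120 had the smallest, from 102 and 88.7 at 0 h to 48.0 and 38.8 at 7 days. These genes were picked for this pattern, so their differences are given without a test.

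**Figure D4:**
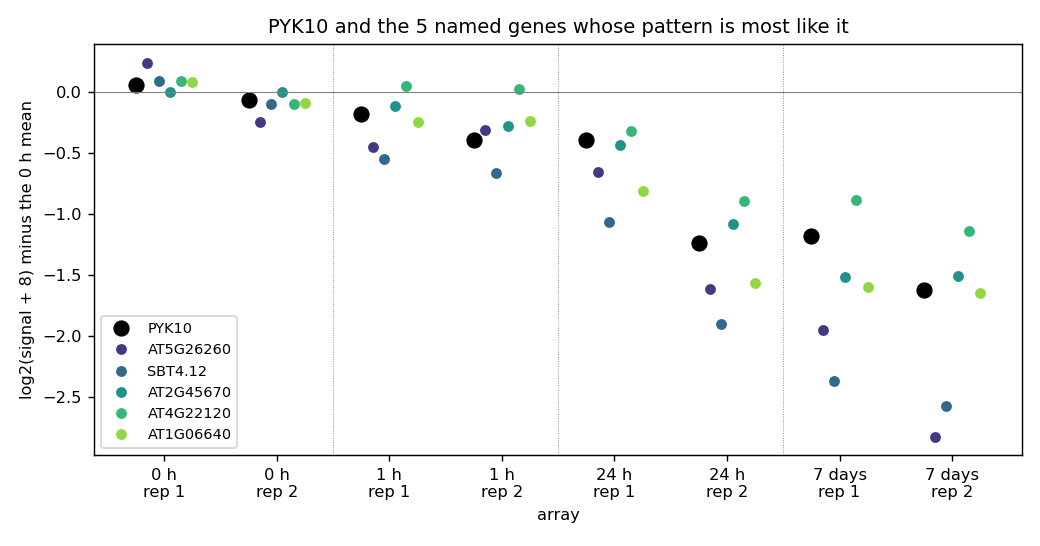
Log2(signal + 8) minus the mean at 0 h for PYK10 (large black points) and the 5 genes most like it, on each of the 8 arrays; dotted lines part the groups. On every gene the 24 h replicate 2 point lies below the replicate 1 point, and PYK10 at 7 days stands at -1.18 and -1.62.

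Other genes of the ER body and of the PYK10 complex were thinly covered by name. Of 17 further entries, 5 had a probe set of their own, and 2 of those 5 were bright enough to test. AT4G15545 gave 1451 and 2392 at 0 h, 507 and 771 at 24 h, and 1261 and 979 at 7 days. It fell by 1.56 ± 0.27 at 24 h (limma, adjusted p = 0.00143) and was at -0.74 ± 0.27 at 7 days (adjusted p = 0.0721), and its replicate 2 was the higher array at 24 h, unlike the 6 genes. AT1G16520 stood at 0.42 ± 0.23 and 0.54 ± 0.23 (adjusted p = 0.199 and 0.119). JAL23, which lies within 3 genes of JAL22, was too dim to be tested, with 8.59 and 11.1 at 0 h, 19.4 and 17.3 at 1 h, 6.54 and 2.75 at 24 h, and 9.86 and 8.69 at 7 days. BGLU19 and BGLU20, close relatives of PYK10, stayed at or below 13.6 and 3.80 on every array. JAL23 was the only gene with a probe set of its own among 47 other jacalin-related lectin entries, and none of 7 nitrile specifier entries had one.

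The wider family of beta-glucosidases, to which PYK10 belongs, showed no common direction. Of 21 measured genes other than PYK10, 9 were tested. At 24 h 1 of 9 rose and 3 fell, where 11.8% of all tested probe sets were called higher and 15.3% lower. At 7 days 1 rose and 2 fell, where 9.18% and 10.7% were called. The genes that fell include BGLU46 at both times, which was tested only through the groups in which it was high. The median log2 differences were -0.05 and 0.00, beside -0.06 and -0.05 over all tested probe sets.

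BGLU25 rose from 95.6 and 96.0 at 0 h to 607 and 456 at 24 h (2.36 ± 0.21, adjusted p = 2.54e-05) and was at 185 and 218 at 7 days (1.01 ± 0.21, adjusted p = 0.00678; 0.89 and 0.0594 without 7 days replicate 2). Its 24 h difference had the opposite sign to that of PYK10. Between 24 h and 7 days BGLU25 fell by 1.36 ± 0.21 (adjusted p = 0.00377).

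BGLU40 fell from 157 and 147 at 0 h to 40.3 and 41.3 at 24 h, and the 7-day arrays read 35.3 and 44.9 (-1.71 and -1.74 ± 0.23, adjusted p = 0.00035 and 0.000602). BGLU46, which hydrolyses monolignol glucosides, fell by 1.65 ± 0.36 at 24 h (adjusted p = 0.00596), from 41.5 and 35.9 to 12.1 and 2.95. Its arrays at 24 h and 7 days were all under the 40th percentile, so it was tested only through the groups in which it was high, and its 24 h value was -2.46 with a constant of 1 and -0.85 with a constant of 32. Its 7-day call (-1.25 ± 0.36, adjusted p = 0.0305) was lost without either 0 h or either 7-day array, with values from -1.39 to -1.12. BGLU16 fell by 0.80 ± 0.18 at 24 h (adjusted p = 0.00598) and was at 0.07 ± 0.18 at 7 days.

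**Figure D5:**
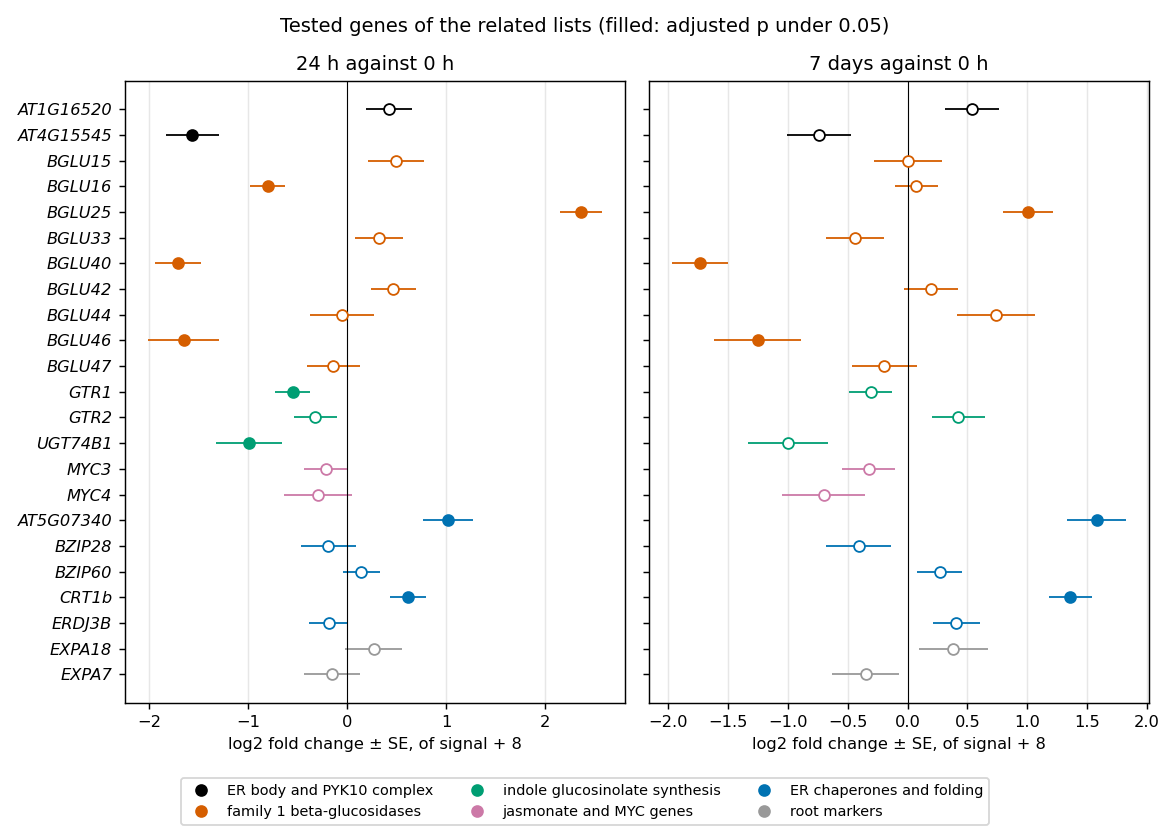
Log2 fold change ± SE from limma, on signal + 8, at 24 h (left) and 7 days (right) against 0 h, for every tested gene of the lists related to ER bodies and for the measured root markers. Filled points had an adjusted p under 0.05; the horizontal ranges of the 2 panels differ. BGLU25, at 2.36 and 1.01, lies to the right of 0 and BGLU40, at -1.71 and -1.74, to the left in both.

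Indole glucosinolates are the substrates of PYK10, and 3 of 24 entries for their synthesis and transport were measured. At 24 h 2 of 3 fell, against 15.3% of all tested probe sets, and 0 of 3 were called at 7 days. GTR1, a glucosinolate transporter, fell by 0.55 ± 0.18 (adjusted p = 0.0375), from 220 and 208 to 152 and 136. UGT74B1, a glucosyltransferase of glucosinolate synthesis, fell by 0.99 ± 0.33 (adjusted p = 0.0461), from 261 and 156 to 125 and 76.4. Each call held in 7 of 16 alternative settings; leaving out any of the 6 arrays of the 0 h, 1 h and 24 h groups lost that of GTR1 (-0.62 to -0.48), and leaving out 0 h replicate 1 (-0.63), 24 h replicate 2 (-0.66) or either 1 h array (-0.99) lost that of UGT74B1. The absence of a 7-day call was no return to the 0 h level for UGT74B1, which stood at -1.0008 ± 0.33 (limma, adjusted p = 0.0541). GTR1 was at -0.31 ± 0.18 at 7 days (adjusted p = 0.245). GTR2, the other measured entry, was not called at either time. It was at -0.32 ± 0.22 at 24 h (adjusted p = 0.307) and on the other side of the 0 h level, at 0.42 ± 0.22, at 7 days (adjusted p = 0.1985). MYC3 and MYC4, transcription factors of jasmonate signalling that act in glucosinolate synthesis, were the measured 2 of 21 entries. They were not called, with -0.21 and -0.30 at 24 h and -0.32 and -0.70 at 7 days (adjusted p between 0.178 and 0.567).

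Genes of general protein folding in the endoplasmic reticulum were not called lower at either late time. Of 15 entries for chaperones and folding 5 were measured, and 2 of 5 rose and 0 fell at each of 24 h and 7 days, where 11.8% and 9.18% of all tested probe sets were called higher and 15.3% and 10.7% lower. CRT1b, a calreticulin, rose from 612 and 615 at 0 h to 859 and 1040 at 24 h (0.62 ± 0.18, adjusted p = 0.0257) and to 1703 and 1479 at 7 days (1.36 ± 0.18, adjusted p = 0.00057). AT5G07340, on the same list, rose by 1.02 ± 0.25 and 1.58 ± 0.25 (adjusted p = 0.011 and 0.00147). The 24 h calls were lost without 0 h replicate 1 (0.61 and 0.68) and without 24 h replicate 2 (0.48 and 0.90), and that of CRT1b also without 0 h replicate 2 (0.62), while both 7-day calls held. BZIP28 and BZIP60, transcription factors of the unfolded protein response, were not called, with -0.19 and 0.14 at 24 h and with -0.41 and 0.27 at 7 days, nor was the co-chaperone ERDJ3B.

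The label gives whole plants as the tissue, and PYK10 is known as a gene of roots, so the markers of root and shoot are given beside these results. Of 22 root markers 2 were measured, EXPA7 and EXPA18, expansins of root hairs, and no defining marker of the inner root was among them. EXPA7 was at -0.16 and -0.35 and EXPA18 at 0.27 and 0.38 at 24 h and 7 days (SE 0.28 and 0.29; adjusted p between 0.387 and 0.72). Their summed signal was 81.6 and 82.4 at 0 h, 60.2 and 79.5 at 1 h, 92.2 and 82.8 at 24 h, and 88.9 and 86.9 at 7 days. Both markers were dim. EXPA7 was under the 40th percentile of its array on 1 h replicate 2 (19.5 against 27.8) and 7 days replicate 1 (23.9 against 24.2). Of 18 shoot markers 2 were measured: LHCB4.1, a light-harvesting protein, was at -0.03 and 0.05, and its relative LHCB4.2 fell at 24 h by 1.02 ± 0.23 (adjusted p = 0.0078; lost without 0 h replicate 2, -0.71, or 24 h replicate 1, -0.86) and was at -0.35 at 7 days. Their summed signal was 6201 and 10040 at 0 h, 5386 and 7043 at 24 h, and 7531 and 7177 at 7 days. With so few markers measured, the part of the proportion of root in the differences of the 6 genes was not tested further.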

How the data were processed

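The authors deposited 1 table of linear signal intensities, which the submitters' processing notes credit to MAS5, with no version, settings or detection calls stated in the sources used here. Of 22810 probe sets, 64 controls were left out, 13513 pair with 1 gene in the platform annotation (13436 were found in RefSeq's TAIR10.1 gene table, which served for names and gene order), 503 with several genes, and 8730 are not listed and stay unnamed. The 0 columns of other samples leave 8 arrays.

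Signals were transformed as log2(signal + 8), with a constant near 20% of the median signal of 40.9. Tested were the 15017 probe sets above their array's 40th percentile on 2 or more arrays. One limma 3.58.1 model in R 4.3.3, with a mean per group, gave 5 contrasts (4 residual and 7.67 prior degrees of freedom, intensity trend); two-sided p-values were adjusted by Benjamini-Hochberg over all 15017, with calls under 0.05. Precision is limited by 2 arrays a group (median SE of a log2 difference 0.24). Data were simulated for 24 h against 0 h on 15017 probe sets, with 200 changed. There 27% of changes of 1 and 81% of changes of 2 (log2) were recovered, with 1 false call. The real comparison had 4074 calls, so the adjusted threshold was stricter in the simulation and these shares do not carry over to it.

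Earlier results of these data were known when the 6 genes, the related lists and the naming rule were chosen. The rule names the 6 genes, every measured gene of the ER body list, and the 5 genes most correlated with PYK10. It also names up to 4 called genes of each other list per comparison against 0 h (largest difference first). MYC3, MYC4, BZIP28, BZIP60, ERDJ3B, GTR2, EXPA7, EXPA18 and LHCB4.1 were not called and complete short lists. Alternatives were the constants 1 and 32, no filter, equal medians, quantile normalization, no trend, only the 4 arrays compared, the replicate block, and leaving out each array. The labels state no block, so the main fit has none. Deviations of same-numbered arrays from their group means correlated at 0.24 to 0.40 among the 0 h, 1 h and 24 h groups. Between those groups and 7 days they correlated at -0.21 to -0.03. No sequences are shown.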

Additional observations from a re-analysis of the deposited data

How the results depend on the processing

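With an array left out, the 24 h difference of PYK10 from 0 h ranged from -1.24 to -0.39 and that of JAL34 from -1.94 to -0.66; since these comparisons chose the 6 genes, their direction and calls against 0 h are no sign of stability. The number of probe sets called at 1 h was 48, but 23 without the filter, 29 without the intensity trend and 16 to 56 with an array left out. With an array left out the counts were 2689 to 3954 at 24 h (4074 with all), 1470 to 3211 at 7 days (2989), 2041 to 3839 for 24 h against 1 h (3906), and 291 to 1358 for 7 days against 24 h (1396, and 808 without the filter). With an array left out the median of the 6 genes ranged from -0.37 to -0.11 for 1 h against 0 h and from -2.09 to -1.12 for 24 h against 1 h. For 7 days against 24 h it ranged from -0.41 to 0.54, and its sign changed with the array left out. The replicate block gave 55, 4391, 3328, 4188 and 1644 calls in the 5 comparisons and changed no call of the genes named from the lists. Scaling to equal medians raised the share of calls that were higher from 43.5% to 53.5% at 24 h, from 46.1% to 58.4% at 7 days and from 43.5% to 57.1% for 24 h against 1 h, where it moved the median of all tested probe sets from -0.08 to 0.04. The causes were not tested. MAS5 signals below the 40th percentile, as for NAI1 in the late groups, are close to background and limit the size of a decrease that can be read.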
